A study of Mus musculus with 6 samples.

Results

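The genes described here encode the working parts of the lysosome, namely its acid hydrolases with their cofactors, its membrane proteins, subunits of the proton pump that acidifies it, and the transcription factors TFEB and TFE3. The list has 34 genes, chosen by function, of which 33 were measured and Cd63, a tetraspanin of the lysosomal membrane, was not analysed here. Among probe sets that the platform annotation assigns to exactly 1 gene symbol, the brightest on average across the 6 arrays stands for each gene. The 33 genes are a small fraction of the 18193 genes measured that way.

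The comparison was between 3 livers labelled L-Pex5 knockout (genotype L Pex5 -/-; KO) and 3 wild-type livers (WT), each hybridised to its own Affymetrix mouse array and labelled as biological replicates. All mice were males of 10 weeks. Both groups carry the same background label, mixed with Alb-Cre and Tac:[Sw]fBR, so the Cre transgene is named for the WT livers too. The albumin promoter of Alb-Cre is active mainly in hepatocytes, so the other cells of a KO liver are not its target. PEX5 is the receptor that carries most enzymes of the peroxisome into that organelle. Values are log2 levels, and a difference is KO minus WT in log2 units, so that 1 unit is a doubling.

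Lysosomes break down proteins, lipids, glycans and glycogen with enzymes that need an acid interior, which the vacuolar proton pump (V-ATPase) provides. Most soluble hydrolases reach the lysosome by a mannose 6-phosphate tag that receptors in the Golgi recognise. Many lysosomal genes carry an E-box in the promoter that TFEB, TFE3 and MITF can bind (the CLEAR motif), and these factors are controlled largely by phosphorylation and nuclear import, under the nutrient-sensing kinase mTORC1 at the lysosomal surface. In liver, hepatocytes and resident macrophages (Kupffer cells) are both rich in lysosomes.

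The hepatocyte markers were high on all 6 arrays, and Alb, for serum albumin, read 14.72, 14.71 and 14.69 in KO livers and 14.56, 14.52 and 14.59 in WT livers. Of 9 hepatocyte markers, 0 rose and 3 fell in KO livers (Asgr1 by 0.58, Fgb by 0.49 and Tdo2 by 0.38), against falls in 9.75% of all genes. All 3 calls were lost when arrays were centred on bacterial control probe sets. There Asgr1 differed by -0.07 (adjusted p = 0.492), and Fgb and Tdo2 turned direction. The call of Tdo2 was also lost without KO liver 2 (adjusted p = 0.147), KO liver 3 (0.106), WT liver 2 (0.105) or WT liver 3 (0.0814). Pex5 itself was at 9.22 ± 0.11 in KO livers and 9.04 ± 0.14 in WT livers (SD, n = 3 each; adjusted p = 0.262), and whether its probe set lies in the deleted part is not known, so it does not check the labels. Arrays correlated at 0.989 or more within a group and at 0.976 or less between groups. Because the samples are pieces of whole liver, fewer cells of a type and less RNA per cell cannot be told apart.

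Transcripts of several major lysosomal proteases, of Hexa and of 3 of the 4 listed proton pump genes were higher in KO livers, while Lamp1, of the lysosomal membrane, did not pass the test and Lamp2 fell. Of the 33 genes, 13 rose in KO livers (limma, Benjamini-Hochberg adjusted over all genes, threshold 0.05), a share of 39.4%, against 14.2% of all 18193 genes. A further 3 fell (Manba, Ctsh and Lamp2), a share of 9.09%, against 9.75% of all genes. Together 48.5% changed, against 24.0% of all genes. The KO and WT ranges did not overlap for 22 of the 33 (16 above WT, 6 below), a share of 66.7%, against 44.8% of all genes. The median difference of the 33 was 0.21, against -0.05 over all genes.

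By role, the count was 5 higher and 1 lower of 8 cathepsins and legumain, with a median difference of 0.55. It was 4 higher and 1 lower of 13 glycosidases and other soluble proteins (median 0.02), and 1 higher and 1 lower of 6 membrane proteins (median -0.10). Of the 4 proton pump genes 3 rose (median 0.58), and of TFEB and TFE3 0 changed (median -0.10; limma, 0 also at an unadjusted p under 0.05). The count of rises depends on the level taken as common to the arrays: with each array centred on its bacterial control probe sets, which were dimmer on KO arrays, 26 of the 33 rose (78.8%) and 0 fell, against rises in 71.3% of all genes, which is near the share of the list. With the deposited values quantile normalised again 11 rose (33.3%, against 11.4% of all genes) and 5 fell (15.2%, against 10.6%). The control centring adds 0.51 to every difference, so it favours rises and counts against falls. All 13 rises kept their call with it and none of the 3 falls did, which tests neither.

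**Figure D1:**
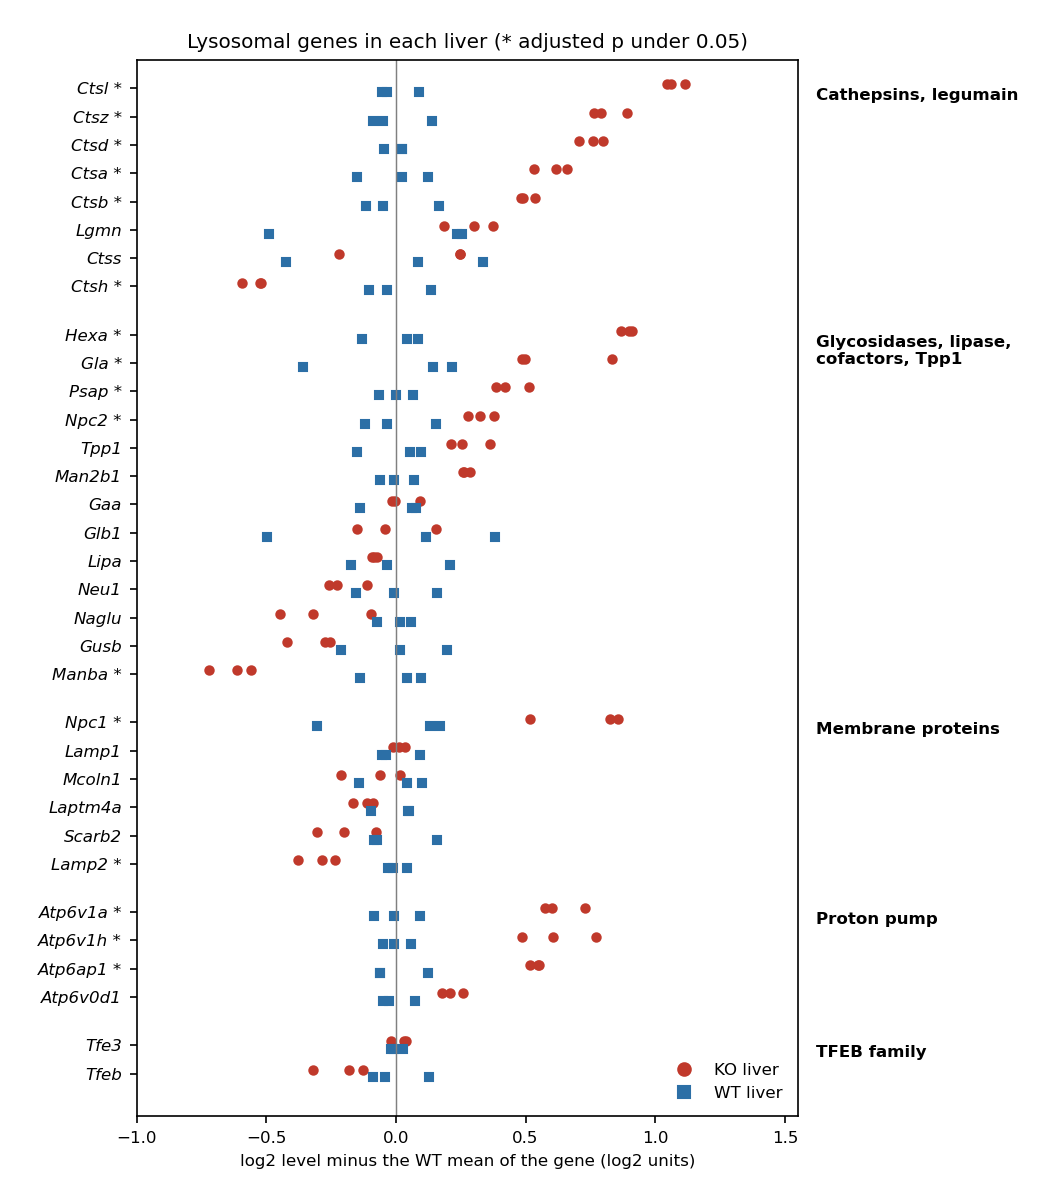
Log2 level of each of the 33 measured lysosomal genes in each of 3 KO and 3 WT livers, minus the WT mean of the gene (x axis, log2 units), with genes down the page grouped by role and an asterisk where the adjusted p is under 0.05. The KO points lie farthest right for Ctsl, Hexa and Ctsz, on the WT points for Lamp1 and Tfe3, and left of them for Manba, Ctsh and Lamp2.

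The promoters are shown for the E-box that TFEB and its relatives can bind. RefSeq promoter windows (GRCm38.p6, 250 bases before to 50 after the annotated start) were found for 30 of the 34 genes. Those of Ctsb, Ctsh, Npc1 and Atp6v1h were not matched. The motifs searched were CACGTG and the longer TCACGTGA, which contains it. Each equals its own reverse complement, so both strands read alike. TCACGTGA was present in 6 of the 30 (20%), against 304 of 27025 genes with a window (1.12%), and CACGTG in 12 of 30 (40.0%), against 2187 genes (8.09%). Among 80 other lysosomal and related genes with a window, 19 (23.8%) held CACGTG and 7 (8.75%) held TCACGTGA. Because many lysosomal genes are known to carry such a motif, its excess in this list is not a result of these data. A match describes these letters and is no evidence of binding.

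The stretches around the motifs of the 6 genes with TCACGTGA, and of Ctsl and Lamp1 as the largest rise and the promoter with most copies among genes with CACGTG alone, read from 5′ to 3′ on the strand of the gene as follows, with the motifs in capitals.
Ctsa: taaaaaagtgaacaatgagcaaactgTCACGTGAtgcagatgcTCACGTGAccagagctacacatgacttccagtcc
Ctsd: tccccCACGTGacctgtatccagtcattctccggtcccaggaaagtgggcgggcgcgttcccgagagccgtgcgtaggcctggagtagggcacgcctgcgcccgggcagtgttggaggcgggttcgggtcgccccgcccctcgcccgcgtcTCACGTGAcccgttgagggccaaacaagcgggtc
Atp6v1a: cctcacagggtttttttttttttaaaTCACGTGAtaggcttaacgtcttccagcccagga
Gla: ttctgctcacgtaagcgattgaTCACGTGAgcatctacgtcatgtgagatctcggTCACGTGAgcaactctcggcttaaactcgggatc
Mcoln1: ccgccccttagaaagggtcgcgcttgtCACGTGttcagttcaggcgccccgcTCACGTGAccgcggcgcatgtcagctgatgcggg
Atp6v0d1: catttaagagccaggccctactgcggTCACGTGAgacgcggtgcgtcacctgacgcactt
Ctsl: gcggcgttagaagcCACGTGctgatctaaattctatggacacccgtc
Lamp1: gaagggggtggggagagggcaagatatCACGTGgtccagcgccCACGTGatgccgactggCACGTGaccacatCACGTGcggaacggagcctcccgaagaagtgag
These stretches lie at chr2:164833734-164833810 (plus strand) for Ctsa, chr7:142387893-142388077 (minus) for Ctsd, chr16:44139358-44139417 (minus) for Atp6v1a, chrX:134601167-134601255 (minus) for Gla, chr8:3500421-3500506 (plus) for Mcoln1, chr8:105566035-105566094 (minus) for Atp6v0d1, chr13:64370724-64370770 (minus) for Ctsl and chr8:13159073-13159178 (plus) for Lamp1.

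Distances are given from the annotated start to the first base of CACGTG, also within TCACGTGA. Ctsa has TCACGTGA on both sides of its start, 12 bases before it and 5 after, and Gla has 2 copies, 227 and 194 bases before. In Atp6v0d1 that distance is 3 bases before the start, so the motif runs across it. Of the 6 genes with TCACGTGA, 4 rose in KO livers (Ctsa, Ctsd, Gla and Atp6v1a) and 2 did not pass the test (Mcoln1 and Atp6v0d1), with a median difference of 0.60. Of the 6 with CACGTG alone, Ctsl rose and Lgmn, Lamp1, Gaa, Glb1 and Naglu did not pass (median 0.02). Of the 17 measured genes with a window and neither motif, 5 rose and 2 fell (median 0.02). Over all genes 14.2% rose and 9.75% fell, and a link between motif and difference was not tested. The calls of Ctsa and Gla were lost when their probe sets were averaged. The promoter of Lamp1 holds 4 copies of CACGTG within 61 bases of the start, and the difference of Lamp1 was 0.01 ± 0.09.

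**Figure D2:**
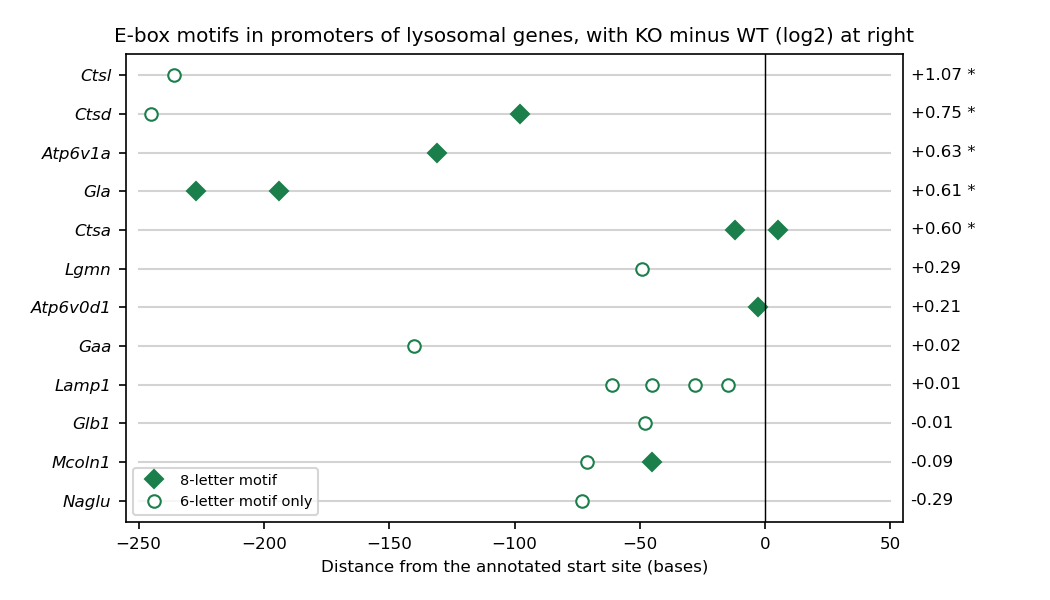
Positions of E-box motifs in the promoters of the 12 lysosomal genes that hold one, with KO minus WT (log2) printed at the right. The x axis gives the distance of the first base of CACGTG from the annotated start site in bases. Filled marks are TCACGTGA and open marks CACGTG alone. Genes with TCACGTGA range from -0.09 for Mcoln1 to 0.75 for Ctsd.

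Ctsl, a cysteine protease of broad specificity, showed the largest rise of the 33 genes by its brightest probe set. Its levels were 13.73, 13.80 and 13.75 in KO livers, against 12.78, 12.65 and 12.63 in WT livers. The groups were far apart, and the difference was 1.07 ± 0.09 (SE), 2.11-fold higher (adjusted p = 0.000159). The second, dimmer probe set of Ctsl differed by 0.19 and did not pass, so the size and rank of the rise depend on the probe set.

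Ctsz, a carboxypeptidase, read 12.58, 12.61 and 12.71 in KO livers and 11.96, 11.77 and 11.73 in WT livers. The groups were well apart, with a difference of 0.82 ± 0.10 (adjusted p = 0.00106), and all 3 of its probe sets were higher, by 0.67 to 0.82. Ctsd, the main aspartic protease of lysosomes, read 11.67, 11.58 and 11.63 in KO livers and 10.90, 10.83 and 10.90 in WT livers. The livers of each group lay close together, and the difference was 0.75 ± 0.08 (adjusted p = 0.000737).

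Ctsa, which is a serine carboxypeptidase and also shields beta-galactosidase and neuraminidase from breakdown, read 10.80, 10.84 and 10.72 in KO livers and 10.31, 10.04 and 10.21 in WT livers. The groups did not overlap and the difference was 0.60 ± 0.10 (adjusted p = 0.00475). Its mean over both probe sets differed by only 0.22 and lost the call (adjusted p = 0.117). The genes of those partner enzymes did not pass the test: the difference was -0.01 ± 0.21 for Glb1 and -0.20 ± 0.11 for Neu1.

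Ctsb, an abundant cysteine protease, read 12.65, 12.70 and 12.66 in KO livers and 12.34, 12.12 and 12.05 in WT livers, all KO livers being the higher. The difference was 0.50 ± 0.10 (adjusted p = 0.0103). Ctsb was the only gene of the 33 with probe sets past the threshold in both directions. Of its 5 probe sets, 1 differed by -0.42 (adjusted p = 0.0183 over all probe sets), and its mean over probe sets, 0.30, lost the call (adjusted p = 0.0567).

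Ctsh, an aminopeptidase of the same family, went the other way. It read 10.84, 10.77 and 10.84 in KO livers and 11.50, 11.26 and 11.33 in WT livers, without overlap, and fell by 0.55 ± 0.10 (adjusted p = 0.00577). With arrays centred on the control probe sets the difference was -0.03 (adjusted p = 0.779). That centring raises every difference, and whether it or the deposited scale is the right reference was not tested. The mean over the probe sets of Ctsh differed by -0.37 (adjusted p = 0.106).

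Ctss and Lgmn are proteases that antigen-presenting cells and macrophages hold in large amounts. Ctss, which cleaves the invariant chain of MHC class II, read 9.85, 9.38 and 9.85 in KO livers and 9.94, 9.69 and 9.18 in WT livers (adjusted p = 0.771). Lgmn, the asparagine-specific protease that also processes cathepsins, read 9.23, 9.04 and 9.16 in KO livers and 9.10, 9.11 and 8.37 in WT livers (adjusted p = 0.314). Both were lowest in WT liver 3, and without it the differences were -0.12 for Ctss and 0.04 for Lgmn. Of the 14 macrophage markers, 11 were also lowest of all 6 livers in WT liver 3, and the rest were lowest in a KO liver.

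The summed linear level of the macrophage markers was 7777, 5970 and 7342 in KO livers, against 9995, 8924 and 4580 in WT livers, so the groups overlapped. Of the 14 markers 0 changed by limma (0 also at an unadjusted p under 0.05), against 24.0% of all genes. Ranges that did not overlap were seen in 0 of them, against 44.8% of all genes. The median difference was -0.14, against -0.05 over all genes. The part of macrophage content in the levels of Ctss and Lgmn was not tested. With any 1 array left out, the difference stayed between 1.05 and 1.12 for Ctsl, 0.77 and 0.89 for Ctsz, and 0.73 and 0.78 for Ctsd, past the threshold each time.

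A macrophage state that takes up lipid, with many active lysosomes, was followed by a list of 5 markers. Of these, 2 rose in KO livers (40%, against 14.2% of all genes) and 0 fell (against 9.75%). Gpnmb, a glycoprotein of lysosome-rich macrophages, read 7.28, 7.47 and 6.15 in KO livers and 4.50, 4.56 and 5.31 in WT livers. Of the WT arrays 2 lay below the background level of 4.90, set from olfactory receptor genes, so its fitted difference of 2.17 ± 0.35 (adjusted p = 0.00402) is imprecise. Averaged over its 2 probe sets, Gpnmb differed by only 1.11 (adjusted p = 0.00935). Cd9, a tetraspanin also made by other liver cells, differed by 1.36 ± 0.18 (adjusted p = 0.00174). Trem2 and Itgax, which define that state, were near background with no call, Trem2 being lower in all KO livers than in all WT livers (-0.25, adjusted p = 0.103), and Mmp12 was below background on all arrays. The summed level of the 5, most of it from Cd9, was 1475 to 1702 in KO livers and 539 to 842 in WT livers, and its part in the lysosomal rises was not tested.

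**Figure D3:**
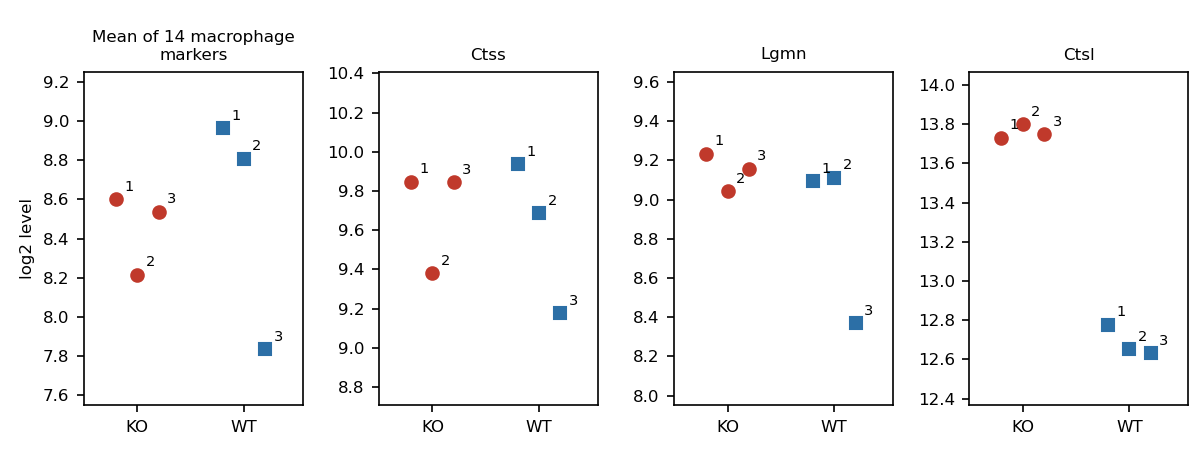
Log2 level in each liver (y axis; KO at left, WT at right, numbers giving the liver) of the mean of 14 macrophage markers and of Ctss, Lgmn and Ctsl. WT liver 3 is lowest for the markers, Ctss and Lgmn, and the KO livers lie above all WT livers for Ctsl.

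Among the glycosidases, the rise was largest for Hexa, the alpha subunit of the beta-hexosaminidase that degrades GM2 ganglioside. Hexa read 10.97, 10.93 and 10.98 in KO livers, against 10.11, 9.94 and 10.15 in WT livers. The groups did not overlap, and the difference was 0.89 ± 0.09, 1.85-fold higher (adjusted p = 0.000534). Gm2a, the activator protein that presents GM2 ganglioside to that enzyme, went the other way. It read 8.98, 9.18 and 9.09 in KO livers and 10.56, 10.39 and 10.68 in WT livers, 2.75-fold lower (difference -1.46 ± 0.11, adjusted p = 9.92e-05). That was the largest fall among the other lysosomal and related genes examined.

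Gla, alpha-galactosidase A, which removes terminal galactose from glycolipids, read 7.02, 6.68 and 6.69 in KO livers and 6.40, 6.33 and 5.83 in WT livers. The groups did not overlap, and the difference was 0.61 ± 0.17 (adjusted p = 0.0373). The call was lost on leaving out KO liver 1 (adjusted p = 0.125), KO liver 2 (0.0773), KO liver 3 (0.0683), WT liver 2 (0.0526) or WT liver 3 (0.0574). Averaged over its probe sets, Gla differed by 0.23 (adjusted p = 0.153).

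Psap, the precursor of the saposins that help hydrolases reach sphingolipids, read 11.96, 11.93 and 12.05 in KO livers and 11.60, 11.48 and 11.54 in WT livers. All KO livers were the higher, with a difference of 0.44 ± 0.09 (adjusted p = 0.0104), and both of its probe sets rose.

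Manba, beta-mannosidase, which acts late in the breakdown of N-glycans, read 6.55, 6.71 and 6.66 in KO livers and 7.31, 7.36 and 7.13 in WT livers. The KO livers all lay below the WT livers, and Manba fell by 0.63 ± 0.10 (adjusted p = 0.00367). With the control centring the difference was -0.12 (adjusted p = 0.372). Man2b1, the alpha-mannosidase of the same pathway, read 10.82, 10.79 and 10.79 in KO livers and 10.60, 10.47 and 10.53 in WT livers, without overlap. Its difference of 0.27 ± 0.09 just missed the threshold (adjusted p = 0.0551).

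The other glycosidases did not pass the test. Gaa, the acid alpha-glucosidase that digests glycogen, differed by 0.02, with a 95% interval of -0.20 to 0.25. Gusb, beta-glucuronidase, read 7.77, 7.93 and 7.91 in KO livers and 8.39, 8.20 and 7.98 in WT livers, a difference of -0.32 ± 0.12 (adjusted p = 0.0968). Its KO livers lay below all WT livers, and a second, dimmer probe set differed by -0.50 (adjusted p = 0.0183 over all probe sets). Without WT liver 3 the difference was -0.42 and past the threshold (adjusted p = 0.0305).

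Naglu, which takes part in the breakdown of heparan sulfate, read 7.24, 7.11 and 7.46 in KO livers and 7.57, 7.48 and 7.62 in WT livers (difference -0.29 ± 0.11, adjusted p = 0.1). Glb1, beta-galactosidase, was dim and scattered, at 5.75, 6.06 and 5.86 in KO livers and 6.02, 5.41 and 6.29 in WT livers. Lipa, the acid lipase that frees cholesterol and fatty acids from lipoproteins and lipid droplets, differed by -0.08 ± 0.11 (adjusted p = 0.618). Tpp1, a peptidase that trims tripeptides, differed by 0.28 ± 0.10 (adjusted p = 0.0856), with all KO livers above all WT livers.

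Lysosomal cholesterol export was represented by Npc1 and Npc2. Npc1, the membrane protein that moves cholesterol out of the lysosome, read 9.22, 9.56 and 9.53 in KO livers and 8.40, 8.88 and 8.84 in WT livers. The lowest liver of each group was number 1, the groups did not overlap, and the difference was 0.73 ± 0.16 (adjusted p = 0.0123). Without KO liver 2 it was 0.67 and the call was lost (adjusted p = 0.0557).

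Npc2, the soluble protein that hands cholesterol to NPC1, read 10.91, 10.81 and 10.85 in KO livers and 10.68, 10.41 and 10.49 in WT livers. The difference was 0.33 ± 0.10, the smallest of the 13 rises (adjusted p = 0.0495). The call was lost on leaving out KO liver 1 (adjusted p = 0.153), KO liver 2 (0.111), KO liver 3 (0.113), WT liver 2 (0.127) or WT liver 3 (0.0905). Averaged over its 4 probe sets, Npc2 differed by 0.04 (adjusted p = 0.745). With each probe set tested alone, 0 rose and 1, near background, differed by -0.46 (limma, adjusted p = 0.0189 over all probe sets).

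The other membrane proteins did not rise on the deposited scale. Lamp1, an abundant glycoprotein that lines the lysosomal membrane, read 12.12, 12.10 and 12.15 in KO livers and 12.06, 12.20 and 12.07 in WT livers. The KO values lay inside the WT range, and the 95% interval of the difference was -0.19 to 0.21. Lamp2, its relative and the receptor of chaperone-mediated autophagy, read 12.10, 11.96 and 12.06 in KO livers and 12.33, 12.31 and 12.38 in WT livers.

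Lamp2 fell by 0.30 ± 0.09 (adjusted p = 0.0415), and its 4 probe sets differed by -0.38 to -0.30. The call was lost on leaving out any of the 6 arrays (adjusted p = 0.0712 to 0.148) and the direction turned with the control centring (0.21, adjusted p = 0.0793).

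Scarb2, a membrane protein that also acts as a sorting receptor, differed by -0.20 ± 0.11 (adjusted p = 0.223). Laptm4a, a small protein spanning the membrane, differed by -0.12 (adjusted p = 0.346). Mcoln1, the calcium channel of the lysosome, read 7.61, 7.76 and 7.84 in KO livers and 7.68, 7.92 and 7.86 in WT livers, with overlapping ranges (adjusted p = 0.58). With the control centring the direction of Scarb2, Laptm4a and Mcoln1 turned, to 0.32, 0.39 and 0.43, and Laptm4a, Mcoln1 and Lamp1 (0.52) passed as rises (adjusted p = 0.0064, 0.0148 and 0.00293).

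The proton pump has a cytosolic part, V1, which splits ATP, and a membrane part, V0, through which protons pass. Atp6v1a, the catalytic subunit of V1, read 9.58, 9.71 and 9.55 in KO livers and 8.97, 9.07 and 8.90 in WT livers. The groups did not overlap, and the difference was 0.63 ± 0.09 (adjusted p = 0.00273). Its other probe set differed by 0.90.

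Atp6v1h, a regulatory subunit of V1, read 10.01, 10.18 and 9.90 in KO livers and 9.47, 9.40 and 9.36 in WT livers (difference 0.62 ± 0.10, adjusted p = 0.00417). Only 1 of its 3 probe sets passed, and the lowest difference among them was 0.04. Atp6ap1, an accessory protein of pump assembly, read 10.01, 9.98 and 10.01 in KO livers and 9.59, 9.40 and 9.40 in WT livers (0.54 ± 0.09, adjusted p = 0.00501). In both genes every KO liver was above every WT liver. Atp6v0d1, a V0 subunit that joins the parts, read 10.84, 10.76 and 10.79 in KO livers and 10.56, 10.53 and 10.66 in WT livers, again without overlap, but did not pass the test (0.21 ± 0.09, adjusted p = 0.11).

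Another 15 pump genes were measured (Atp6v0c was not analysed here), of which 7 rose (46.7%, against 14.2% of all genes) and 2 fell (13.3%, against 9.75%), with a median difference of 0.27. The largest rise was that of Atp6v1c1, a V1 subunit that takes part in pump assembly, at 10.48, 10.55 and 10.40 in KO livers and 9.43, 9.75 and 9.65 in WT livers (0.86 ± 0.11, adjusted p = 0.0013). Atp6v1d, of the central stalk, differed by 0.78 ± 0.09 (adjusted p = 0.00101), and Atp6v0e, of V0, by 0.75 ± 0.08 (adjusted p = 0.000737). Atp6v0e2, a paralogue of Atp6v0e, fell by 0.79 ± 0.16 (adjusted p = 0.00945). The second fall was in Atp6v1b1, named after its values were seen, which lay below background on all 6 arrays and is given no fold.

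Over the whole pump, 10 of 19 measured genes rose (52.6%, against 14.2% of all genes) and 2 fell (10.5%, against 9.75%), with a median difference of 0.45. By part, 6 of 10 V1 genes rose and 1 fell (median 0.62), whereas 2 of 7 V0 genes rose and 1 fell (median -0.08), and both accessory genes rose. The difference between V1 and V0 was not tested.

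**Figure D4:**
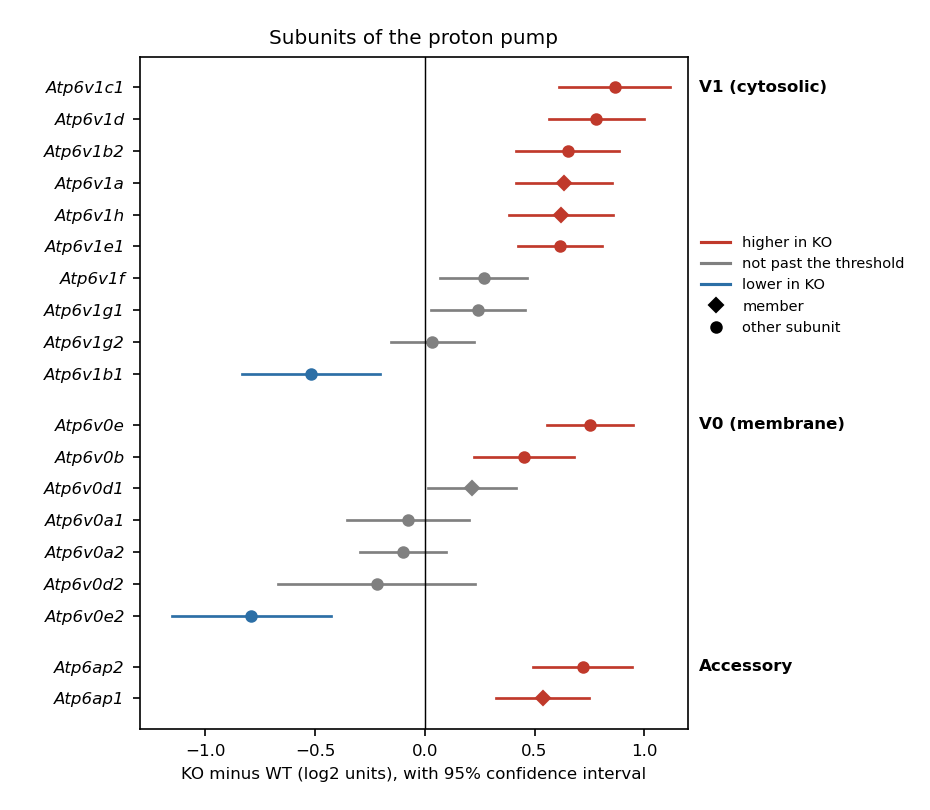
KO minus WT difference (x axis, log2 units) with its 95% confidence interval for 19 proton pump genes, grouped down the page into V1, V0 and accessory genes, with diamonds for the 4 listed lysosomal genes and circles for the other subunits. The 6 V1 genes that rose lie between 0.62 and 0.86, and V0 genes spread from -0.79 to 0.75.

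The transcription factors themselves did not pass the test. Tfeb read 6.94, 6.75 and 6.89 in KO livers and 6.98, 7.03 and 7.20 in WT livers. All KO livers lay below all WT livers, with a difference of -0.21 ± 0.10 (adjusted p = 0.168), which turned to 0.30 with the control centring. Tfe3 read 7.79, 7.80 and 7.74 in KO livers and 7.74, 7.79 and 7.75 in WT livers, with a 95% interval of the difference of -0.17 to 0.21.

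The genes around TFEB, namely its relatives Mitf and Tfec and the mTORC1 complex with its regulators at the lysosomal surface, were followed as a list of 19 measured genes. Of these 10 rose (52.6%, against 14.2% of all genes) and 1 fell (5.26%, against 9.75%), with a median difference of 0.36. Rragd, a GTPase of the Rag family that recruits mTORC1 and TFEB to the lysosome, read 8.03, 8.75 and 7.30 in KO livers and 4.78, 4.76 and 3.86 in WT livers. All WT arrays were below the background level of 4.90, so Rragd was at least 8.71-fold higher (adjusted p = 0.000546).

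Mtor, the kinase, differed by 0.69 ± 0.09 (adjusted p = 0.00135), but only by 0.19 when its probe sets were averaged (adjusted p = 0.1). Mitf, a factor of the same family as TFEB and TFE3, read 7.24, 6.72 and 7.12 in KO livers and 6.70, 6.10 and 5.98 in WT livers, barely apart (0.77 ± 0.21, adjusted p = 0.0329). Its call was lost without KO liver 1 (adjusted p = 0.113), KO liver 3 (0.0953), WT liver 2 (0.0887) or WT liver 3 (0.0839). Fnip1, a partner of folliculin, which acts on the Rag GTPases, differed by 0.67 ± 0.16 (adjusted p = 0.0217). Its call was lost without KO liver 1 (adjusted p = 0.0634), KO liver 2 (0.0604), KO liver 3 (0.0736) or WT liver 1 (0.0507). Folliculin itself, Flcn, named after its values were seen, differed by 0.50 (adjusted p = 0.00741).

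The genes that deliver hydrolases to the lysosome were a list of 13, of which 6 rose (46.2%, against 14.2% of all genes) and 2 fell (15.4%, against 9.75%), with a median of 0.05. Igf2r, the large mannose 6-phosphate receptor, read 9.49, 9.64 and 9.36 in KO livers and 8.48, 8.76 and 8.48 in WT livers. Every KO liver was above every WT liver, and the difference was 0.92 ± 0.12, 1.89-fold higher (adjusted p = 0.00136). Ap1m1 and Ap1s1, subunits of the AP-1 adaptor that sorts those receptors in the Golgi, differed by 0.71 ± 0.11 (adjusted p = 0.00311) and 0.59 ± 0.13 (adjusted p = 0.016). The call of Ap1s1 was lost without KO liver 2 (adjusted p = 0.0596) or KO liver 3 (0.0555). Gga1, another adaptor of the same step, fell by 0.50 ± 0.13 (adjusted p = 0.0249), and its difference was 0.01 with the control centring. Its call was lost without KO liver 1 (adjusted p = 0.0929), KO liver 2 (0.0965), WT liver 1 (0.0556) or WT liver 3 (0.0594).

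Among 28 other hydrolases and cofactors, 8 rose (28.6%, against 14.2% of all genes) and 5 fell (17.9%, against 9.75%), with a median of 0.07, and 6 listed genes were not analysed here. Besides Gm2a, the named genes were Arsa, the arylsulfatase that degrades sulfatide, at 9.54, 9.58 and 9.62 in KO livers and 8.44, 8.76 and 8.70 in WT livers (0.94 ± 0.11, adjusted p = 0.000803). Pla2g15, the lysosomal phospholipase, fell by 0.76 ± 0.10 (adjusted p = 0.00152). Ctsc, a dipeptidyl peptidase abundant in immune cells, fell by 0.74 ± 0.15 (adjusted p = 0.0106). Ctsc was at 10.45, 10.08 and 10.49 in KO livers and 11.32, 10.96 and 10.95 in WT livers, without the low value of WT liver 3 seen for Lgmn.

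Among 20 other membrane proteins, 5 rose (25%, against 14.2% of all genes) and 4 fell (20%, against 9.75%), with a median of 0.06. Cln3, a membrane protein altered in a childhood neurodegenerative storage disease, read 8.06, 8.28 and 7.57 in KO livers and 7.13, 6.91 and 7.01 in WT livers (0.95 ± 0.18, adjusted p = 0.00705). Laptm4b, a relative of Laptm4a, differed by 0.68 ± 0.11 (adjusted p = 0.00421). Slc36a1, a transporter that exports amino acids with protons, fell by 0.87 ± 0.12 (adjusted p = 0.00171), and Tpcn1, a cation channel, fell by 0.79 ± 0.10 (adjusted p = 0.00129). Membrane genes of both sets thus moved in both directions.

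Over these 95 other genes, 36 rose (37.9%, against 14.2% of all genes) and 14 fell (14.7%, against 9.75%), with a median difference of 0.15. With the control centring 78 rose (82.1%, against 71.3% of all genes) and 2 fell. The falls of Pla2g15, Ctsc, Tpcn1 and Atp6v0e2 lost their calls there, with differences of -0.25, -0.23, -0.27 and -0.28 (adjusted p = 0.0922, 0.224, 0.0691 and 0.18). The range over fits that left out 1 array was 21 to 32 rises (22.1% to 33.7%, against 8.23% to 13.3% of all genes) and 7 to 12 falls (7.37% to 12.6%, against 4.88% to 9.23%). The lowest counts of rises came without KO liver 1 (21 higher, 8 lower), KO liver 2 (23 and 7) and KO liver 3 (23 and 9).

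**Figure D5:**
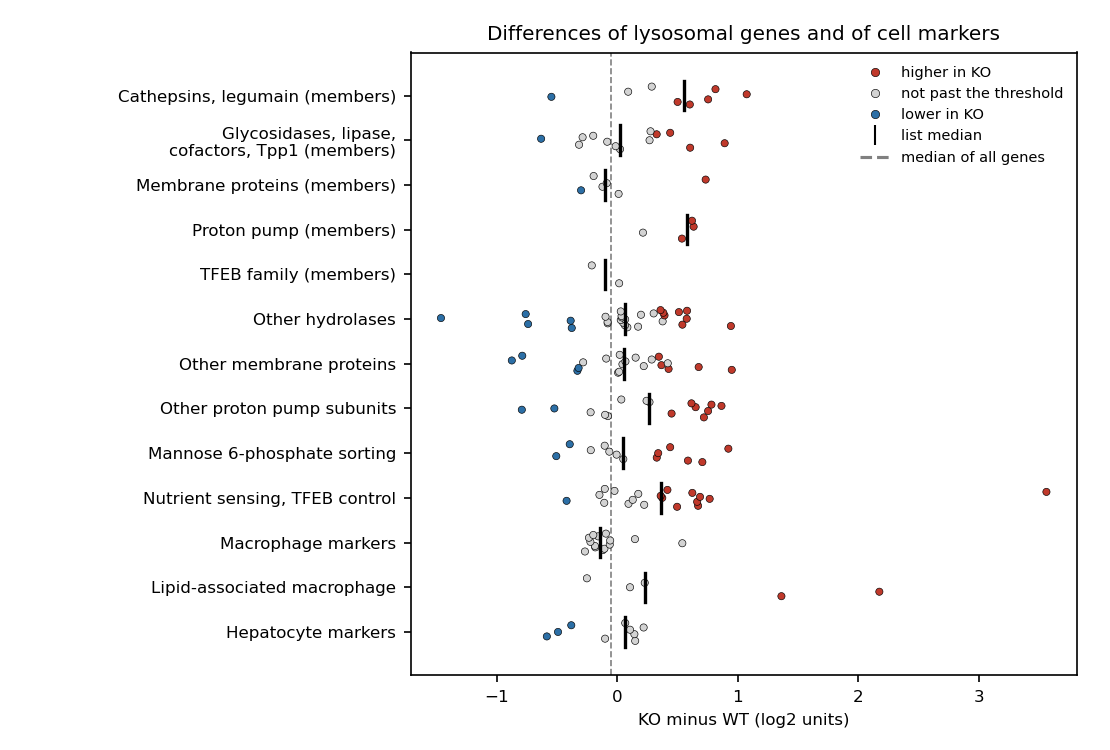
KO minus WT difference (x axis, log2 units) of each gene in the 5 lists of lysosomal genes under study, in 5 lists of other lysosomal and related genes, and in 3 cell marker lists, with short vertical lines at list medians and a dashed line at the median of all genes. Cathepsins and pump genes have medians of 0.55 and 0.58, macrophage markers of -0.14, and the point at 3.56 is Rragd.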

How the data were processed

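Total RNA of 3 KO and 3 WT livers was hybridised to Affymetrix arrays, per the labels' protocols. Each deposited value is a probe set level made with RMA according to the submitters' processing notes, without a stated version. The deposited range, 2.15 to 14.9, shows a log2 scale. Because RMA pulls all arrays to a common distribution, levels are relative.

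The platform annotation of 2016 gives 34945 probe sets 1 symbol, covering 18193 genes. Symbols were checked against the GRCm38.p6 gene table. Tests used lmFit and eBayes of limma 3.58.1 under R 4.3.3, two-sided, adjusted by Benjamini-Hochberg over all 18193 genes, threshold 0.05. The fit was checked on simulated data. Background was 4.90, the 95th percentile of 38 olfactory receptor genes. A gene dimmer than that on every array of a group is given a minimum fold, those arrays being set to 4.90. With 3 arrays a group, precision is limited by their number.

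All listed genes are named, and of each other pathway list up to 4 changed genes with the largest difference. From cell marker lists up to 3 changed genes and markers at background are named, with Kdr and Alb named besides. The genes, lists and tests were chosen with earlier results of these data known. Alternatives covered the replicate block, leaving out each array, normalization, probe set choice, a filter on dim genes, the variance model, array weights and a stricter threshold.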

Additional observations from a re-analysis of the deposited data

How the results depend on the processing

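Of the 16 lysosomal genes that changed, 8 kept their call in all 14 alternative fits at the threshold of 0.05 (Atp6ap1, Atp6v1a, Atp6v1h, Ctsd, Ctsl, Ctsz, Hexa and Psap). The control centring, among the 14, adds 0.51 to every difference and so favours rises, and all 8 are rises. The fall of Manba lost its call only there. For Ctsd, Hexa and Atp6ap1, with 1 probe set each, the mean of probe sets repeats the same values. Fits without 1 array gave 10 to 13 rises and 2 to 3 falls among the 33 genes, the fewest without KO liver 2 (10 and 2), and 21 to 32 rises and 7 to 12 falls among the 95 other genes. For the 33 genes these were shares of 30.3% to 39.4% and 6.06% to 9.09%. Over all genes the same fits gave rises in 8.23% to 13.3% and falls in 4.88% to 9.23%. Centring on 38 bacterial control probe sets added 0.51 to every difference, giving 26 rises and 0 falls among the 33 genes and 78 and 2 among the 95, shares of 78.8% and 82.1% that are near the 71.3% of all genes that rose. It turned the direction of Lamp2 (0.21), Laptm4a (0.39), Scarb2 (0.32), Mcoln1 (0.43), Glb1 (0.50), Gusb (0.20), Lipa (0.43), Naglu (0.23), Neu1 (0.31), Tfeb (0.30) and Gga1 (0.0079). Quantile normalization gave 11 rises and 5 falls (33.3% and 15.2%, against 11.4% and 10.6% of all genes) and turned Gaa (-0.076) and Tfe3 (-0.11). The share of rises among the called lysosomal genes was 81.2% as reported, 100% with control centring and 68.8% with quantile normalization. Over all genes these shares were 59.3%, 96.9% and 51.8%. The mean of probe sets gave 9 rises (27.3%, against 12.1% of all genes) and turned Scarb2 (0.015) and Gaa (-0.10). Array weights turned Lamp1 (-0.015) and Glb1 (0.13), and median centring turned Glb1 (0.027). A threshold of 0.01 left 8 rises, without Psap (adjusted p = 0.0104), and the falls of Manba (adjusted p = 0.00367) and Ctsh (adjusted p = 0.00577). With each probe set tested alone, 6 genes had a probe set that fell (Ctsb, Ctsh, Gusb, Lamp2, Manba and Npc2), and more genes had one that rose. Genes with several probe sets have more chances to be counted that way, so the 6 do not compare with the falls of the other fits. No share of all genes is given for these counts. Leaving out 1 array gave differences of -0.12 to 0.26 for Ctss, -0.014 to 0.058 for Lamp1, -0.045 to 0.063 for Gaa, -0.26 to 0.18 for Glb1 and -0.17 to 0.021 for Lipa. The cause of these shifts was not tested. Some settings hold fewer arrays or shift every value by design.

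With the replicate block, 12 of the 33 genes rose (36.4%, against 13.6% of all genes) and 2 fell (6.06%, against 8.89%). The calls of Npc2 (adjusted p = 0.0567) and Lamp2 (0.0678) were lost. Same-numbered KO and WT arrays deviated from their group means with correlations of 0.105, -0.018 and 0.105, and not every array correlated best with its own number, so the numbers were not shown to pair the livers. Dim probe sets have compressed differences.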

Other observations

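Other cell markers were read beside the lysosomal genes. Of 8 markers of sinusoidal endothelial cells, 1 rose and 3 fell in KO livers, against 14.2% and 9.75% of all genes. Lyve1, a hyaluronan receptor of these cells and of lymphatic vessels, read 5.92, 7.08 and 7.20 in KO livers and 4.87, 4.47 and 4.66 in WT livers. All its WT arrays were below background, so it was at least 3.55-fold higher (limma, adjusted p = 0.00287). Clec4g, Tek and Kdr, a lectin and receptors of the same cells, fell by 0.42, 0.48 and 0.31, with adjusted p of 0.0403, 0.0484 and 0.0481. Each of these 3 calls was lost in 9 of 14 alternatives: leaving out any 1 of the 6 arrays ended those of Tek (adjusted p = 0.0558 to 0.123) and Kdr (0.0697 to 0.141), and leaving out any except WT liver 2 ended that of Clec4g (0.0503 to 0.121). Centring on the bacterial controls adds 0.51 to every difference, which turns the direction of these 3 falls and of those of Reln and Krt19.

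Of 8 stellate cell markers, Reln fell by 0.50 ± 0.09 (limma, adjusted p = 0.00755), a share of 12.5%, against 9.75% of all genes. The other 7 did not pass. Of 5 biliary markers, 1 fell, a share of 20%, against 9.75% of all genes. This marker, Krt19, was below background on all KO arrays and also in WT liver 2 (4.85). WT livers 1 and 3 lay close above background (5.12 and 5.28). By these levels it was at least 1.13-fold lower (limma, adjusted p = 0.0384). That call was lost in 7 of 13 alternatives, among them leaving out KO liver 1 (0.114), KO liver 3 (0.116), WT liver 1 (0.0795) or WT liver 3 (0.0896). Of the other biliary markers, Krt7 and Cftr were below background on all arrays. Of 7 lymphocyte and neutrophil markers 0 changed by limma (0 also at an unadjusted p under 0.05), against 24.0% of all genes. Cd3g and Nkg7 were below background on all arrays.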
